A study of Mus musculus with 5 samples.

Results

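Cadherins and protocadherins were examined as 44 of the 12621 genes in the deposited table of mouse mesenchymal stem cells. They were taken by gene symbol alone, namely numbered cadherins, every protocadherin, the giant cadherins of the Fat, Dachsous and Celsr families, and the alpha, beta and delta catenins apart from Ctnnb1. Among the 44 were 6 cadherins, 3 catenins, 4 giant cadherins, 5 protocadherins outside the gene clusters, and 26 clustered protocadherins (1 alpha, 13 beta and 12 gamma). GENCODE M21 lists 107 genes of these names, and the other 63, Cdh1, Cdh5 and the 3 Celsr genes among them, were not analysed here.

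The study set cells of TSG-6 knockout (KO) mice beside cells of wild-type (WT) mice. TSG-6, the product of Tnfaip6, is a secreted protein that binds hyaluronan. All samples carry the strain label Balb/c (C.129S6), and the labels give no age, tissue of origin, passage number or treatment, nor do they describe the knockout allele. The table has 3 KO columns, named C1, C2 and SE, and 2 WT columns, named C1 and SE, whereas the submitters' design text states 2 replicates for each genotype. The labels explain neither the names C and SE nor whether each library is a culture or an animal of its own, so that p-values measure only the spread between these 5 libraries.

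Cadherins are calcium-dependent adhesion proteins whose outer domains bind cadherins of a neighbouring cell, and whose inner tails, in the classical members, hold p120-type (delta) catenins and beta-catenin, with alpha-catenin linking the complex to actin. Fat and Dachsous are very large cadherins that bind each other between cells and act in planar polarity and in Hippo growth control. Clustered protocadherins lie in tandem alpha, beta and gamma arrays, from which single cells, neurons above all, choose different members as adhesive identity labels; mesenchymal stromal cells are known for N-cadherin (Cdh2) and for cadherin-11 (Cdh11), the cadherin of osteoblasts and other mesenchyme.

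The values that follow are normalised counts close to CPM in scale, each given by library in the order C1, C2, SE for KO and C1, SE for WT, and then as mean ± SD (n = 3 KO and n = 2 WT). Reads assigned to genes numbered 13605555 to 26658725 in KO libraries and 17986301 to 25978244 in WT libraries, so that 3 reads are worth 0.113 to 0.215 in KO and 0.122 to 0.155 in WT. Log2 fold changes are KO over WT on log2(value + 0.5), which understates changes of low genes, with the standard error of the estimate and an adjusted p from limma with Benjamini-Hochberg adjustment over 12484 tested genes; a gene was called at an adjusted p under 0.05. Plain folds are ratios of group means. Tnfaip6 itself stood at 1.65, 2.38 and 1.36 in KO and at 6.04 and 3.21 in WT, with a log2 fold change of -1.13 (limma adjusted p = 0.0578), so reads of the targeted gene were present in all KO libraries. Where in the gene the deletion lies was not given, and these reads therefore do not check it.

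The labelled cell type was compared with marker lists. Of 13 mesenchymal stromal markers 12 were in the table, with summed normalised counts of 8437 to 26710 in KO and 5814 to 6154 in WT. The 2 called higher were Col1a1 (506 to 12333 in KO and 5.55 to 56.1 in WT) and Col1a2. The 4 called lower were Ly6a, Cd44, Nt5e and Alcam. Nt5e was at 0.358 to 0.946 in KO and 77.4 to 121 in WT, and Alcam at 0 to 0.378 and 35.6 to 38.6. The sums do not show that these 4 were lower in KO. Markers of other cell types also differed. Of 8 adipocyte markers all 8 were in the table and called higher, with sums of 4397.5 to 10610 in KO and 51.1 to 79.2 in WT, and 7 of 8 smooth muscle and pericyte markers summed to 3104 to 6606 in KO and 93.4 to 122 in WT. Of these 7, 5 were called higher and 1, Cspg4, lower (0.454 to 1.79 in KO and 28.0 to 70.6 in WT), and most of the KO sum was Acta2 (2971 to 6456 in KO and 47.4 to 64.5 in WT). Of 16 epithelial and mesothelial markers 4 were in the table, all called lower, with sums of 2.79 to 6.25 in KO and 323 to 369 in WT, nearly all of the WT sum being mesothelin (Msln), and Krt18 was at 0 in every KO library. The 3 haematopoietic markers of 12 in the table summed to 38.8 to 46.8 in KO and 3.11 to 5.19 in WT. Of these, Csf1r and Lyz2 were called higher, Lyz2 at 24.4 to 34.2 in KO and 0 to 0.162 in WT. Endothelial markers, 3 of 10, summed to 0.517 to 3.87 in KO and 3.88 to 5.47 in WT, and neural and glial markers, 5 of 10, to 58.8 to 139.9 in KO and 189 to 192 in WT. In the neural and glial list 1 marker was called higher and 3 lower. Most of its KO sum was Ncam1 (50.9 to 133 in KO and 88.2 to 100 in WT). Sox2 was at 0 in every KO library and at 86.0 and 64.9 in WT. Of 8 skeletal muscle markers only Des was in the table, and it was called higher. Over all tested genes 17.2% were called higher and 17.1% lower. Testing asked for a value of 1 or more in 2 libraries or more. Adipoq, Plin1, Cidec, Cd36, Tagln, Rgs5, Des, Csf1r and Lyz2 reached 1 in KO alone and had to be higher. Nt5e, Alcam, Msln, Krt18, Ocln, Sox2, Nes, Tubb3, Flt1 and Erg reached 1 in WT alone and had to be lower. The calls of these genes add no support. The part of these markers in the cadherin values was not tested, and in bulk RNA fewer cells of a type and less RNA per cell cannot be told apart. Libraries named SE also stood apart: the chi-square per degree of freedom between read counts was 204 and 220 for KO SE with KO C1 and C2, against 62.3 between those C libraries. Over the 44 members, KO SE was the highest KO library in 36, 81.8%, where the share over tested genes was 41.8%, and WT SE was above WT C1 in 31, 70.5%, against 44.6%.

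Of the 44 members, 40 passed the filter, which asked for a value of 1 or more in 2 libraries or more. Among these 40, 16 were called higher and 6 lower in KO, 40% and 15% of those tested, where the background over all 12484 genes was 17.2% called higher, 17.1% called lower and 34.3% called in either direction. Their median log2 fold change was 0.80, and that of all tested genes was -0.09. KO libraries all lay above WT libraries in 19 of the 44 members and all below in 9, against 28.0% and 30.7% of tested genes. Of the 19, 7 reached 1 in KO libraries alone, and of the 9, 4 did so in WT libraries alone. These entered through the genotype in which they are high, so both counts add no support. The count of calls rested on few libraries, over all genes as among the members. Leaving out WT C1 or WT SE, which leaves 1 WT library, gave fewer calls in both. Without KO C2, where 2741 genes were called in place of 4279, 10 members were called higher and 8 lower. Without both SE libraries 15 were called higher and 4 lower. With the C or SE name as a block the counts were 23 higher and 8 lower, where 28.3% of all genes were called higher and 32.3% lower. The members it added were Pcdhb16, Pcdhb17, Pcdhb18, Pcdhga6, Pcdhga12, Pcdhgc3 and Ctnnd1 (higher) and Cdh13 and Pcdh19 (lower). Of the tested members, 6 had values of 1 or more in KO libraries alone (Pcdha11, Pcdhb2, Pcdhb15, Pcdhga5, Pcdhgb6 and Dchs2) and 3 in WT libraries alone (Ctnnd2, Dchs1 and Pcdh9). Such genes passed the filter through the genotype in which they are high and so had to differ, and their calls add no support. In all 22 called members the KO and WT libraries did not overlap. The sign between the C libraries therefore had to be that between the SE libraries, and this adds no support. For the 16 higher, log2 differences were 1.14 to 4.45 among C and 1.35 to 5.04 among SE. For the 6 lower they were -4.58 to -1.83 among C and -4.42 to -1.71 among SE.

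**Figure D1:**
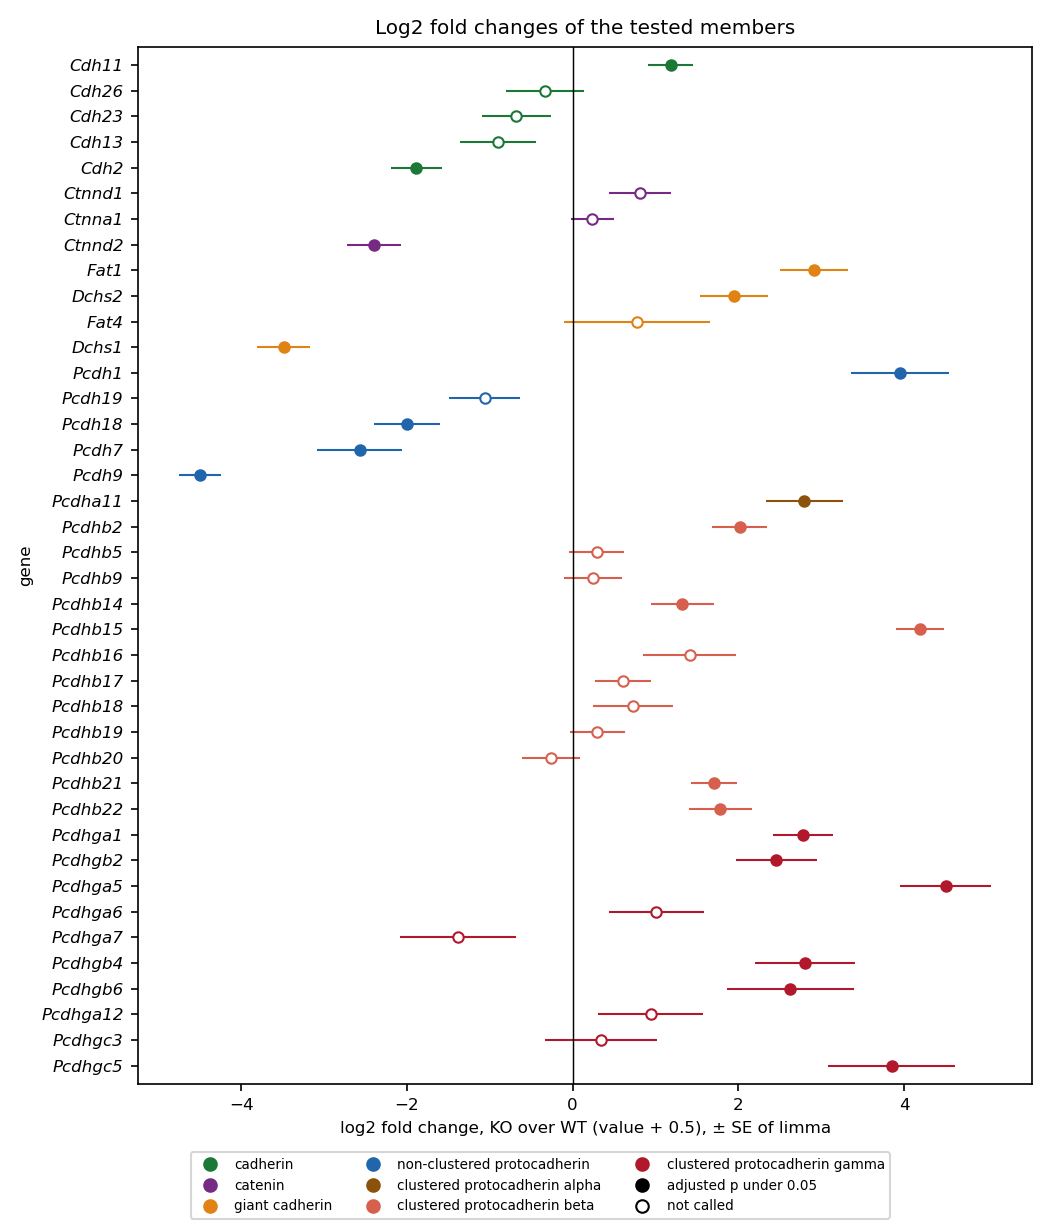
Log2 fold change of KO over WT, on log2(normalised count + 0.5), for the 40 tested members, grouped by family, with bars of 1 standard error from limma and filled points for an adjusted p under 0.05. The clustered beta and gamma protocadherins lie mostly right of 0, with 12 clustered members called higher and 0 lower, while 3 non-clustered protocadherins (Pcdh7, Pcdh9, Pcdh18) lie left of 0 and Pcdh1 right of it.

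Among the classical and related cadherins, KO cells had more Cdh11 and less Cdh2 messenger RNA. Cdh13 was lower in every KO library than in both WT libraries, but the spread between KO libraries was too wide for a call. Of 5 tested cadherins, Cdh11 and Cdh2 were the only 2 called, where 34.3% of all tested genes were called in either direction.

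Cdh11 (ENSMUSG00000031673, chr8:102632095-102785642, minus strand, GRCm38) encodes cadherin-11. Its normalised counts were 139.7, 211 and 222 in KO and 77.7 and 86.7 in WT, or 191 ± 44.7 in KO and 82.2 ± 6.36 in WT. Every KO library was above both WT libraries, and the lowest KO library was C1. Cdh11 was 2.32-fold higher in KO, with a log2 fold change of 1.18 (standard error 0.27, limma adjusted p = 0.0168). This call was lost without WT C1 (limma adjusted p = 0.103), without WT SE (0.0702) and without KO C2 (0.0710), with log2 fold changes of 1.11, 1.26 and 1.10.

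Cdh2 (ENSMUSG00000024304, chr18:16588877-16809246, minus strand) encodes N-cadherin. It stood at 10.7, 14.1 and 17.4 in KO and at 47.2 and 58.2 in WT, or 14.1 ± 3.37 in KO and 52.7 ± 7.77 in WT. The highest KO library was far below the lowest WT library. N-cadherin messenger RNA was 3.74-fold lower in KO, a log2 fold change of -1.89 (standard error 0.30, limma adjusted p = 0.00459), and was called in all 18 alternative analyses. The difference was -1.90 between the C libraries and -1.71 between the SE libraries.

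Cdh13 encodes T-cadherin, a cadherin anchored in the membrane by a lipid tail and a receptor for adiponectin. Its normalised counts were 94.2, 189 and 60.7 in KO and 191.7 and 192 in WT, or 114 ± 66.3 in KO and 192 ± 0.223 in WT. KO C2 was close to WT, while KO C1 and KO SE were far below it. The log2 fold change of -0.90 (standard error 0.46) was not called (limma adjusted p = 0.173). Without KO C2 it was -1.34 (limma adjusted p = 0.0371), and with the C or SE name as a block -1.01 (0.0429). The remaining cadherins were scarce. Cdh23, a tip-link cadherin of hair cells, ranged from 0.188 to 1.07 in KO and from 0.770 to 1.40 in WT, Cdh26 from 0.567 to 2.44 in KO and from 1.55 to 2.35 in WT, and neither was called (log2 fold changes of -0.68 and -0.34). Cdh17, the liver-intestine cadherin, was not tested; it had 5 reads in KO and 61 in WT, a ratio of read rates of 17.1 in WT over KO (exact 95% interval 6.94 to 54.5, counting error only).

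Levels of different cadherins can be set beside each other per kb of exon. On this scale Cdh11 averaged 21.4 ± 5.02 normalised counts per kb in KO and 9.23 ± 0.715 in WT, and Cdh13 averaged 10.2 ± 5.90 in KO and 17.1 ± 0.0205 in WT. Cdh11 made up 60.4%, 55.8% and 74.7% of the summed per-kb level of the 6 cadherins in KO and 26.5% and 27.9% in WT. Cdh13 held 32.3%, 39.5% and 16.2% in KO and 52.0% and 49.1% in WT. Cdh2 held 5.09%, 4.13% and 6.47% in KO and 17.8% and 20.7% in WT. The most abundant cadherin by this measure was thus Cdh11 in all KO libraries and Cdh13 in both WT libraries, and the ranges of the 2 genotypes did not overlap for any of these shares. The sum of normalised counts over the 6 cadherins was 322 ± 85.8 in KO and 331 ± 13.7 in WT, a difference within the spread of the libraries.

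**Figure D2:**
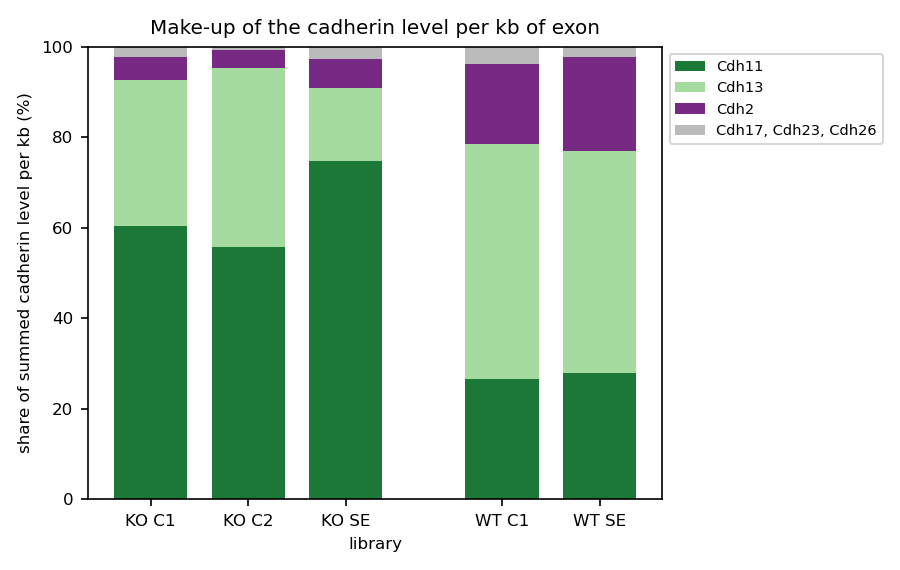
Share of each cadherin in the summed per-kb normalised count of the 6 cadherins, in percent, as stacked bars for the libraries KO C1, KO C2, KO SE, WT C1 and WT SE. Cdh11 takes 55.8% to 74.7% of the KO bars and 26.5% to 27.9% of the WT bars, and Cdh2 4.13% to 6.47% of the KO bars and 17.8% to 20.7% of the WT bars.

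Of the 3 catenins, the abundant Ctnna1 and the p120-type Ctnnd1 were not called, and the scarce Ctnnd2 was called lower in KO. Ctnna1, the alpha-catenin that couples cadherin complexes to actin, was the most abundant member per kb, at 69.2 ± 9.70 in KO and 59.0 ± 13.0 in WT. Its normalised counts were 402, 415 and 516 in KO and 319.9 and 438 in WT, and the groups overlapped. The log2 fold change was 0.24 (standard error 0.26, limma adjusted p = 0.511). Ctnnd1 encodes p120-catenin, which keeps cadherins at the surface. It stood at 12.5, 10.97 and 22.2 in KO and at 8.31 and 7.82 in WT, so that all KO libraries were above WT, but the log2 fold change of 0.81 (standard error 0.38) was not called (limma adjusted p = 0.143, and 0.0279 with the C or SE name as a block). Of its exon bases, 61.2% are shared on the same strand with the predicted gene Gm28635, so these counts are uncertain. Ctnnd2, the delta-catenin known from neurons, had 0 reads in all KO libraries and 95 in WT, at 1.42 and 3.11 (2.26 ± 1.19). With 3 reads allowed in each KO library it was at least 14.5-fold lower in KO (log2 fold change -2.40, limma adjusted p = 0.00234). Ctnnb1, the beta-catenin that is both cadherin partner and Wnt effector, is given for comparison: it was at 292, 369 and 427 in KO and at 486 and 554 in WT, all KO libraries below WT, with a log2 fold change of -0.53 that was not called (limma adjusted p = 0.150).

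The giant cadherins moved in opposite directions. Fat1 and Dchs2 were higher in KO, Dchs1 was nearly absent from KO, and Fat4 did not separate the genotypes. Fat1, an atypical cadherin of cell edges and actin dynamics (chr8:44935447-45052257, plus strand), stood at 74.4, 87.3 and 185 in KO and at 13.4 and 14.0 in WT, or 116 ± 60.5 in KO and 13.7 ± 0.432 in WT. The WT libraries were nearly equal and every KO library was several times higher, the SE library most. Fat1 was 8.45-fold higher in KO (5.91-fold without KO SE), with a log2 fold change of 2.91 (standard error 0.41, limma adjusted p = 0.00275). Per kb it stood at rank 4 of the members in KO, at 7.38 ± 3.87, and at rank 17 in WT, at 0.874 ± 0.0276.

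Dchs1 encodes a Dachsous ligand, and Fat4 its receptor. Dchs1 (chr7:105752990-105787654, minus strand) was at 0, 0 and 0.215 in KO and at 4.70 and 7.20 in WT (WT 5.95 ± 1.77). Its 3 KO reads all came from the SE library, against 255 reads in WT, a ratio of read rates of 119 in WT over KO (exact 95% interval 40.3 to 582, counting error only). On group means the fold was 83.04 in WT over KO, 55.4 without KO C1, and without KO SE no KO read remained. The log2 fold change was -3.49 (limma adjusted p = 0.000511). Fat4 was at 0.987, 0.151 and 5.30 in KO and at 1.01 and 0.207 in WT, with overlapping groups. Its log2 fold change of 0.78 (standard error 0.88, limma adjusted p = 0.531) covered -0.62 between the C libraries and 3.04 between the SE libraries. Dchs2, the second Dachsous gene, had 89 reads in KO, at 0.705, 1.44 and 2.58, and 0 in WT, and was thus at least 11.4-fold higher in KO. Its log2 fold change of 1.95 (limma adjusted p = 0.0130) was not called without WT C1 (0.0867) or without WT SE (0.0852). Predicted gene Gm10710 lies on the opposite strand over 12.0% of its exon bases.

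**Figure D3:**
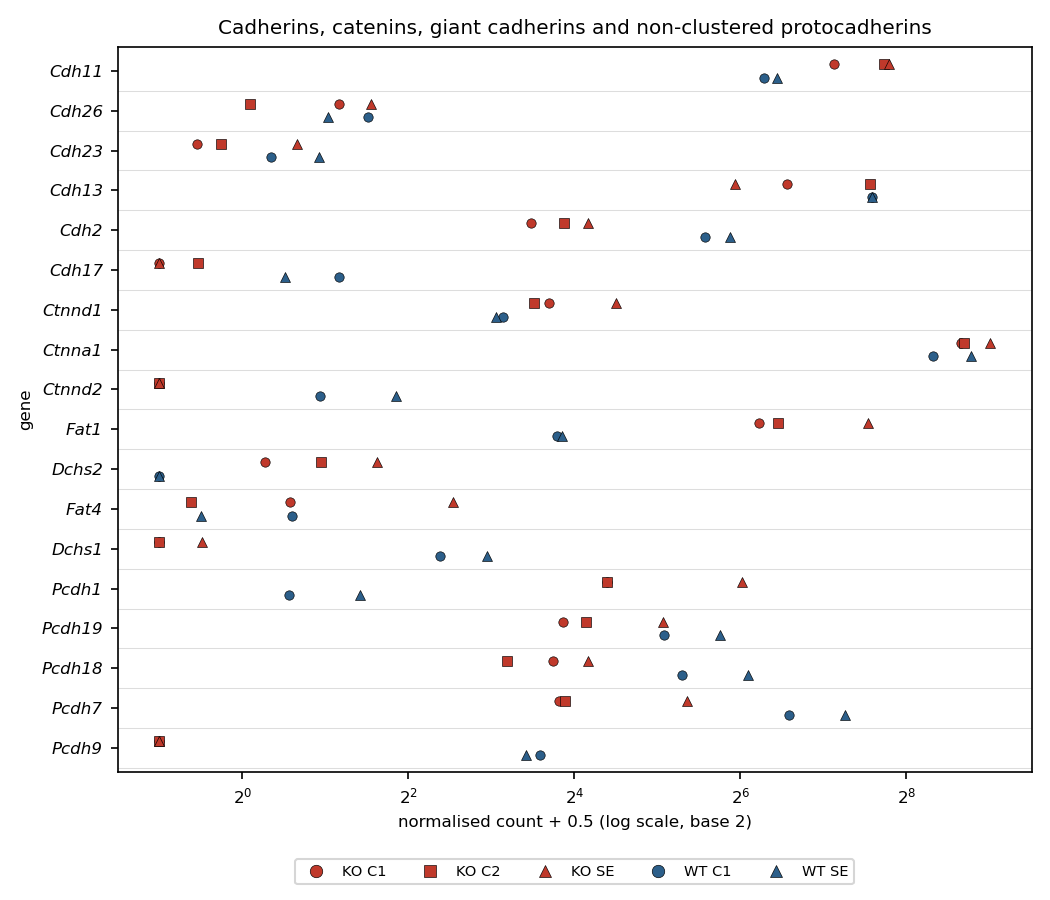
Normalised count plus 0.5 on a log2 axis for the 18 members outside the protocadherin clusters, with the KO libraries (red) above the WT libraries (blue) for each gene and circles for C1, squares for C2 and triangles for SE. KO and WT points stand apart for Cdh2, Cdh11, Fat1, Dchs1, Pcdh1, Pcdh7, Pcdh9 and Pcdh18, whereas those of Ctnna1 and Fat4 overlap.

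The protocadherins outside the clusters are delta-protocadherins, adhesion proteins whose conserved tail motifs hold signalling partners. Of the 5 in the table, 3 were called lower in KO (Pcdh7, Pcdh9 and Pcdh18) and 1 higher (Pcdh1), while Pcdh19 was not called. Over all tested genes 17.1% were called lower and 17.2% higher. Pcdh9 had no read in KO and reached the filter through WT alone. The promoters of the 3 genes that fell together are shown, so that the sequence around their starts can be read beside their values. Each runs from 250 bases before to 50 after the gene start of RefSeq on GRCm38.p6. The E2-box CACCTG (or CAGGTG, the same site read from the other strand), bound by Snail and Zeb repressors of cadherin genes, was searched on both strands, and a match is set in capitals.
Pcdh7 promoter, chr5:57717831-57718130, plus strand: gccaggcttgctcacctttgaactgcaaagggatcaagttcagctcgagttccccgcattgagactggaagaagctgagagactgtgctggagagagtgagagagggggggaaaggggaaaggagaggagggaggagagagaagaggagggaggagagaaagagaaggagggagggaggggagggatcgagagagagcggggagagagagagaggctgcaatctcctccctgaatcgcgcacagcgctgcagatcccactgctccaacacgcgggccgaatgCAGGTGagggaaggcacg
Pcdh9 promoter, chr14:93890620-93890919, minus strand: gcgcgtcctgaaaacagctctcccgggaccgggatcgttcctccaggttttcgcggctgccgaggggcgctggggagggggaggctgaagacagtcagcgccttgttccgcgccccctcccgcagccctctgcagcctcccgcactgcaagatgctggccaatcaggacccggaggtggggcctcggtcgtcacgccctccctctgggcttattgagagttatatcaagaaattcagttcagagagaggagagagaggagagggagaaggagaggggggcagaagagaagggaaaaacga
Pcdh18 promoter, chr3:49757267-49757566, minus strand: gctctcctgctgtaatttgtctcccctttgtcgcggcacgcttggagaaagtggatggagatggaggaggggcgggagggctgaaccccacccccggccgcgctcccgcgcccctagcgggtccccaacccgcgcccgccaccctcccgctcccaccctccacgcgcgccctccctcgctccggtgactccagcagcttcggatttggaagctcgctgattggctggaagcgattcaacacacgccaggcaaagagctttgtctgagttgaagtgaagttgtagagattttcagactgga
The Pcdh7 window held 1 match, at base 33 after the start, and the Pcdh9 and Pcdh18 windows held none. At least 1 match was held by 20.2% of all 32851 RefSeq promoters and by 17.1% of the 12161 promoters of genes that have counts. The windows held 11, 19 and 23 CG dinucleotides in the order printed, and the median was 7 over all promoters and 20 over those of genes that have counts. RefSeq windows were read for 11 members, and only those of Pcdh7 and Fat1 held a match. The RefSeq start used for Fat1 lies inside the gene as GENCODE M21 places it, well after the start given above. The Fat1 match is therefore not taken as a site near that start. These letters describe the windows and say nothing of binding.

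Pcdh9 (chr14:93013410-93890679, minus strand) was at 0 in all 3 KO libraries and at 11.5 and 10.2 in WT (WT 10.8 ± 0.895), which is 480 reads in WT. With 3 reads allowed per KO library, Pcdh9 was at least 69.2-fold lower in KO (log2 fold change -4.501, standard error 0.25, limma adjusted p = 9.46e-05). Since Pcdh9 reached the filter through WT alone and had to differ, this p-value adds no support. The median log2 fold change of the 50 nearest tested genes outside the families, which spread over 42.3 Mb, was -0.02.

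Pcdh7, whose product is known to bind the phosphatase PP1 and the oncoprotein SET, stood at 13.6, 14.3 and 40.4 in KO and at 95.7 and 153 in WT, or 22.8 ± 15.3 in KO and 124 ± 40.4 in WT. All KO libraries were below WT, and within each genotype the SE library was highest. Pcdh7 was 5.46-fold lower in KO (8.92-fold without KO SE), with a log2 fold change of -2.57 (standard error 0.52, limma adjusted p = 0.0106). The call was lost without WT SE (log2 fold change -2.24, limma adjusted p = 0.0643). Of its exon bases, 21.1% lie opposite 4932441J04Rik, and the strand setting of the counting was not stated. Per kb, Pcdh7 stood at rank 15 of the members in KO, at 2.15 ± 1.44, and at rank 3 in WT, at 11.7 ± 3.81.

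Pcdh18 stood at 12.9, 8.59 and 17.5 in KO and at 38.8 and 67.8 in WT, or 13.0 ± 4.45 in KO and 53.3 ± 20.5 in WT. It was 4.11-fold lower in KO with no overlap (log2 fold change -1.997, standard error 0.40, limma adjusted p = 0.0106), and without WT SE it was not called (-1.60, limma adjusted p = 0.0786). Pcdh19, a delta-protocadherin on the X chromosome that pairs with N-cadherin, showed 14.0, 17.2 and 33.0 in KO and 33.3 and 53.7 in WT. KO SE lay just under WT C1, and the log2 fold change of -1.06 (standard error 0.43) was not called (limma adjusted p = 0.101). Without KO SE it was -1.42 (limma adjusted p = 0.0105), without both SE libraries -1.08 (0.0155), and with the C or SE name as a block -0.91 (0.00509).

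Pcdh1, a protocadherin of epithelia and airways (chr18:38185914-38212053, minus strand), went the other way. Its normalised counts were 20.5, 20.6 and 64.6 in KO and 0.973 and 2.18 in WT, or 35.3 ± 25.4 in KO and 1.57 ± 0.851 in WT. The lowest KO library was well above the highest WT library. Pcdh1 was 22.4-fold higher in KO (between 13.1 and 36.2 with 1 library left out), a log2 fold change of 3.95 (standard error 0.59, limma adjusted p = 0.00338). Summed, the 5 non-clustered protocadherins gave 92.4 ± 54.7 normalised counts in KO and 233 ± 75.2 in WT.

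The calls among the clustered protocadherins, on chromosome 18, were all toward higher values in KO. Of the 26 members, 23 were tested, 12 were called higher in KO, 0 lower and 11 not called, where 17.2% of all tested genes were called higher. A positive log2 fold change was found for 21 of the 23, against 46.2% of all tested genes, and the median was 1.41, against -0.09. The 3 not tested were Pcdhb11, Pcdhga4 and Pcdhgb7. Since 5 of the 23 (Pcdha11, Pcdhb2, Pcdhb15, Pcdhga5 and Pcdhgb6) reached the filter through KO alone and had to be higher, these counts are no support, and the 18 that reached 1 in both genotypes are counted apart, and 7 of these were called higher. In 14 of the 26 all KO libraries were above WT, and in 0 all below, against 28.0% and 30.7% of tested genes. Of these 14, the untested Pcdhga4 and the 5 named above reached 1 in KO alone, so this count adds no support. Summed over the 26 genes, normalised counts were 157, 186 and 395 in KO and 66.2 and 112 in WT, a 2.76-fold higher mean in KO. The sum includes the genes that reached 1 in KO alone.

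Genes around the clusters went in both directions. The 26 genes lie within 837 kb, and the 50 nearest tested genes outside the families spread over 8.86 to 10.6 Mb, depending on the member. Among these 50 the median log2 fold change was 0.30 to 0.33, with 11 to 12 called higher and 7 to 8 lower. Pcdh1 lies 344 kb beyond the last clustered gene. Messenger RNAs of alpha and of gamma genes share their last exons, so that 53.4% of the exon bases of Pcdha11 and 31.8% to 66.8% of those of the gamma genes belong to other genes of the same array on the same strand. Counts of single alpha and gamma genes are therefore uncertain, while beta genes, which are single-exon genes, share no bases in the annotation except Pcdhb21 and Pcdhb22. Members of each array are also close paralogs, and how the counting treated reads that fit several of them was not stated.

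**Figure D4:**
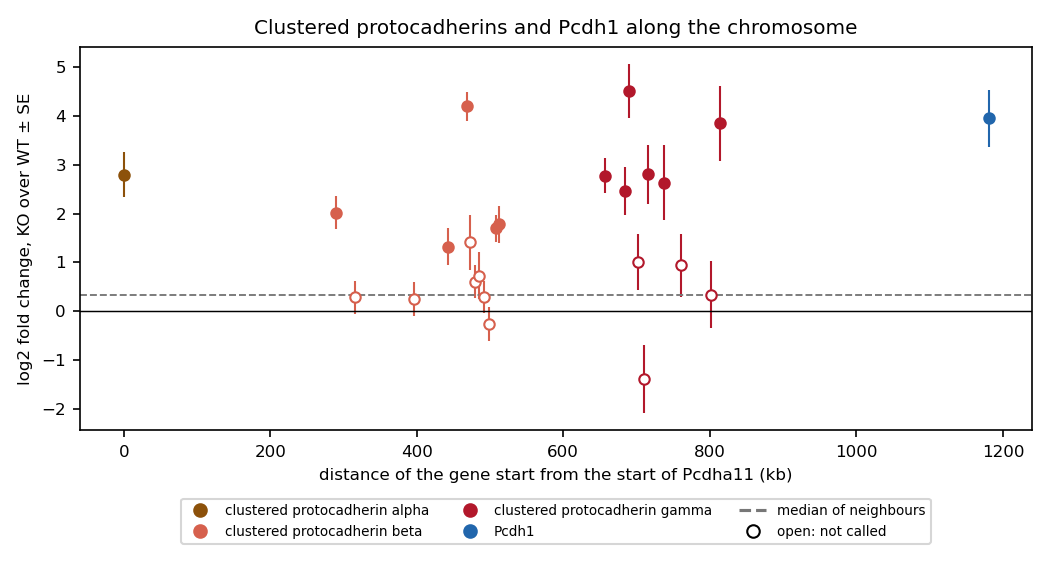
Log2 fold change of KO over WT, with bars of 1 standard error, against distance in kb from the start of Pcdha11, for the tested clustered protocadherins and Pcdh1, with the median of neighbouring genes as a dashed line. Alpha, beta and gamma genes called higher are spread along the 837 kb, between genes near 0, and Pcdhga7 at -1.38 is the lowest.

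Pcdha11 was the only alpha gene in the table, and the other 13 were not analysed here. It stood at 3.34, 2.01 and 6.74 in KO and at 0.0811 and 0.104 in WT, or 218 reads in KO and 4 in WT. KO libraries were all far above WT, by 43.6-fold on the means (between 28.9 and 54.6 with 1 library left out). The log2 fold change was 2.80 (standard error 0.46, limma adjusted p = 0.00513).

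Among the beta genes, adhesion proteins encoded by 1 exon each, 5 of 12 tested were called higher and 0 lower. Over all tested genes the shares were 17.2% higher and 17.1% lower. Of the 5, Pcdhb2 and Pcdhb15 reached the filter through KO alone and had to be higher. The summed normalised count over the 13 in the table was 103 ± 29.4 in KO and 44.0 ± 8.12 in WT, a 2.34-fold higher mean. Pcdhb15 had the highest log2 fold change of the beta genes on log2(value + 0.5), though Pcdhb2, with no WT read, has no upper limit to its fold. Pcdhb15 stood at 12.7, 11.9 and 12.6 in KO and at 0.324 and 0.104 in WT, or 12.4 ± 0.449 in KO and 0.214 ± 0.156 in WT. The 3 KO libraries were nearly equal, unlike those of most members, and rested on 760 reads against 10 in WT. Pcdhb15 was 57.9-fold higher in KO (38.2-fold without WT SE and 119.6-fold without WT C1), with a log2 fold change of 4.19 (standard error 0.29, limma adjusted p = 0.000199). Per kb it stood at rank 6 of the members in KO and at rank 36 in WT.

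The beta genes next to each other at the end of the array, Pcdhb21 and Pcdhb22, were both higher. Pcdhb21 stood at 5.45, 5.79 and 6.31 in KO and at 1.4996 and 1.40 in WT, 4.04-fold higher in KO without overlap (log2 fold change 1.70, limma adjusted p = 0.00468, and 0.0583 without WT SE). Pcdhb22 stood at 10.9, 19.7 and 22.3 in KO and at 4.26 and 4.87 in WT, 3.87-fold higher in KO without overlap (log2 fold change 1.78, limma adjusted p = 0.0136). That call was lost without WT C1 (0.0792), WT SE (0.0618) or KO C2 (0.0519). The 2 genes share 9.67% and 6.88% of their exon bases with each other. Pcdhb14 stood at 9.92, 11.4 and 17.8 in KO and at 3.77 and 5.96 in WT, 2.68-fold higher in KO (log2 fold change 1.32, limma adjusted p = 0.0358). It was the weakest beta call, lost on plain CPM (0.0505) and without WT C1 (0.203), WT SE (0.0767) or KO C2 (0.0839). Pcdhb2 had 92 reads in KO, at 0.987, 1.44 and 2.36, and 0 in WT, so at least 11.5-fold higher (log2 fold change 2.02, limma adjusted p = 0.00523, and 0.0563 without WT C1 or 0.0575 without WT SE).

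The remaining tested beta genes were not called by the model with genotype alone, and 3 of them were called with the C or SE name as a block. Pcdhb16 stood at 10.3, 10.3 and 29.4 in KO and at 3.57 and 7.46 in WT, with all KO libraries above WT and a log2 fold change of 1.41 that was not called (standard error 0.56, limma adjusted p = 0.0974). It was called by DESeq2 on the recovered reads (adjusted p = 0.0203), by limma without both SE libraries (0.0106) and by limma with the block (0.00108). Pcdhb17 was at 12.2, 15.8 and 19.1 in KO and at 8.11 and 12.3 in WT, which overlap by a small margin (log2 fold change 0.60, limma adjusted p = 0.214, and 0.0277 with the block). Pcdhb19 was at 7.66, 7.83 and 11.5 in KO and at 8.35 and 6.06 in WT (0.30, limma adjusted p = 0.530), and Pcdhb20 at 3.10, 5.67 and 5.23 in KO and at 4.99 and 6.11 in WT (-0.26, limma adjusted p = 0.609). Both overlapped between the genotypes. Pcdhb5, Pcdhb9 and Pcdhb18 had log2 fold changes of 0.29, 0.25 and 0.73 and were not called (Pcdhb18 at a limma adjusted p of 0.0262 with the block), with values of 1.36 to 3.30 in KO and 0.486 to 1.86 in WT.

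The order of the beta genes by normalised count was not fixed within a genotype. Pcdhb15 led in KO C1 with 16.3% of the beta sum, Pcdhb22 in KO C2 with 20.5% and Pcdhb16 in KO SE with 21.7%, whereas Pcdhb19 led in WT C1 with 21.8% and Pcdhb17 in WT SE with 24.8%. Members at a value of 1 or more numbered 11, 12 and 13 of 13 in KO and 9 and 10 in WT. Pcdhb2, Pcdhb11 and Pcdhb15 reached 1 in KO alone, so this difference was in part fixed in advance and adds no support.

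**Figure D5:**
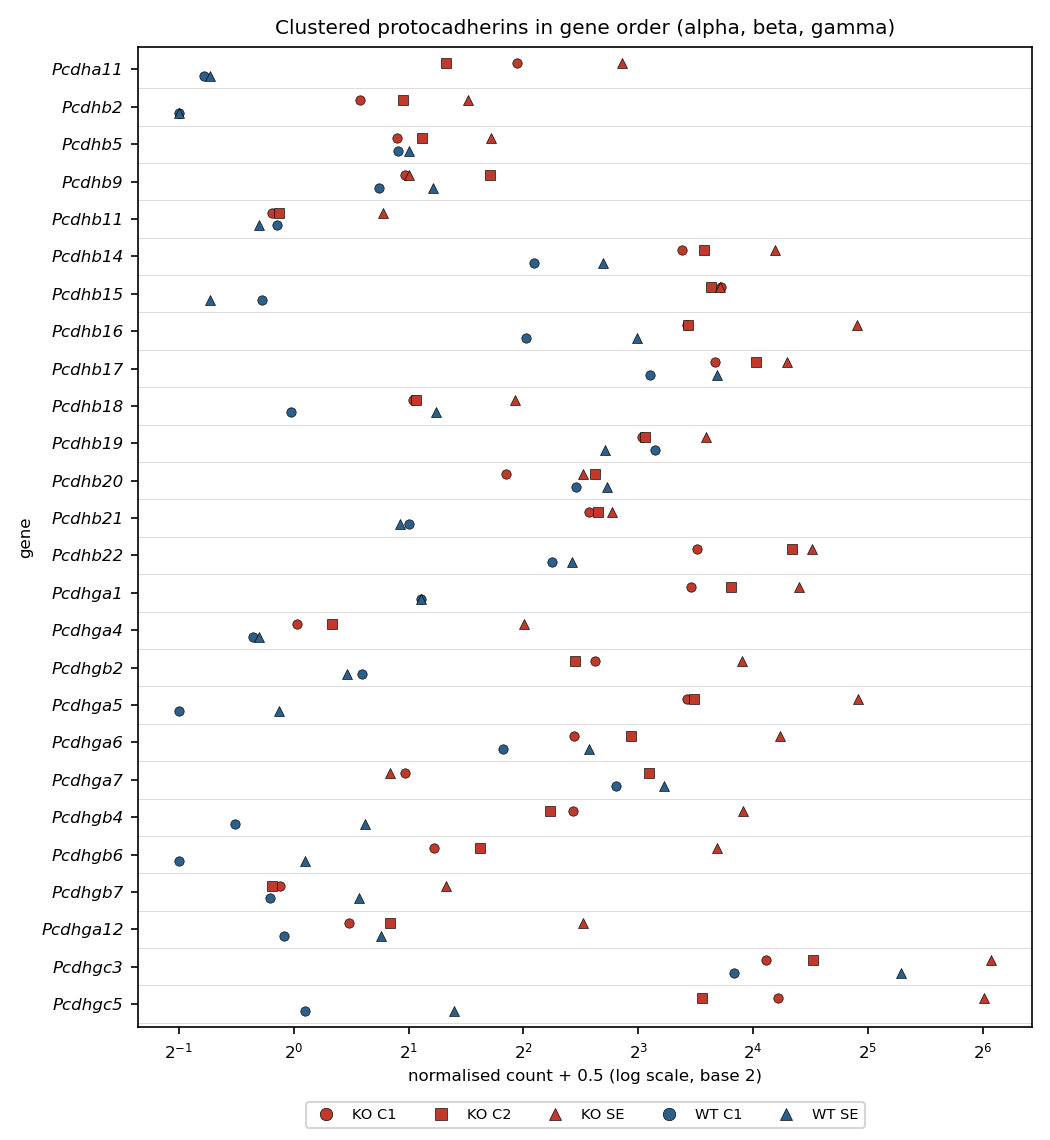
Normalised count plus 0.5 on a log2 axis for the 26 clustered protocadherins in gene order, with the KO libraries (red) above the WT libraries (blue) for each gene and circles for C1, squares for C2 and triangles for SE. KO libraries all lie above WT in 14 genes, Pcdhb15 and Pcdhga5 among them, and the SE triangle is the highest KO point in 22 of 26. Pcdhb15 and Pcdhga5 reached 1 in KO alone.

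Gamma genes, whose products pair variable adhesive domains with a common tail, were called higher for 6 of 10 tested, and for 0 lower. Over all tested genes the shares were 17.2% higher and 17.1% lower. Of the 6, Pcdhga5 and Pcdhgb6 reached the filter through KO alone and had to be higher. The gamma sum over the 12 in the table was 76.2, 87.3 and 253 in KO and 27.8 and 62.1 in WT, or 139 ± 98.9 in KO and 44.96 ± 24.3 in WT. The sum thus separated the genotypes and also the library types: SE exceeded the mean of C libraries 3.09-fold in KO and 2.23-fold in WT, and KO exceeded WT 2.94-fold among C libraries and 4.07-fold among SE libraries. Over the clustered genes of all arrays, 12 were called higher without both SE libraries and 18 with the C or SE name as a block, against 12 with all libraries and no block.

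Pcdhga1, which reached 1 in libraries of both genotypes, was called in all 18 alternatives. It stood at 10.5, 13.5 and 20.6 in KO and at 1.66 in both WT libraries, 8.96-fold higher in KO (log2 fold change 2.78, standard error 0.36, limma adjusted p = 0.00208). Pcdhga5 stood at 10.2, 10.7 and 29.6 in KO and at 0 and 0.414 in WT. Its 913 KO reads faced 8 WT reads, all from WT SE, a ratio of read rates of 81.4 in KO over WT (exact 95% interval 41.1 to 189, counting error only). The ratio of means was 40.6 without WT C1, and without WT SE no WT read remained. The log2 fold change was 4.504 (standard error 0.55, limma adjusted p = 0.00156). Pcdhgc5, a C-type gene of the end of the array, stood at 18.1, 11.2 and 63.8 in KO and at 0.567 and 2.12 in WT, without overlap. It was 23.1-fold higher in KO (10.9-fold without KO SE, 54.7-fold without WT SE), with a log2 fold change of 3.85 (limma adjusted p = 0.0105), and the call was lost without WT C1 (3.20, limma adjusted p = 0.0600).

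The other 3 gamma calls rested on lower values. Pcdhgb2 stood at 5.64, 4.96 and 14.5 in KO and at 1.01 and 0.881 in WT, 8.83-fold higher in KO (5.60-fold without KO SE), with a log2 fold change of 2.46 (limma adjusted p = 0.0100, and 0.0518 without WT C1 or 0.0599 without WT SE). Pcdhgb4 stood at 4.89, 4.20 and 14.5 in KO and at 0.203 and 1.04 in WT, 12.7-fold higher in KO (7.34-fold without KO SE, 38.9-fold without WT SE), with a log2 fold change of 2.80 (limma adjusted p = 0.0138, and 0.0883 without WT C1). Both kept all KO libraries above WT. Pcdhgb6 stood at 1.83, 2.57 and 12.4 in KO and at 0 and 0.570 in WT, with 280 KO reads against 11 WT reads, all from WT SE, a ratio of read rates of 18.2 in KO over WT (exact 95% interval 9.99 to 36.8, counting error only). The ratio of means was 19.7, but 7.73 without KO SE, and without WT SE no WT read remained. Its log2 fold change of 2.63 (limma adjusted p = 0.0387) was the least firm, with an adjusted p of 0.185 without WT C1, 0.0692 without WT SE, 0.0618 without KO C2, 0.0557 at a pseudocount of 1 and 0.0590 in edgeR.

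Pcdhgc3, the C-type gamma gene that is widely expressed outside neurons, was not called. It stood at 16.8, 22.5 and 66.9 in KO and at 13.7 and 38.6 in WT, or 35.4 ± 27.4 in KO and 26.2 ± 17.6 in WT. The groups overlapped, and SE was far above C in both genotypes (log2 fold change 0.34, standard error 0.68, limma adjusted p = 0.733). With the C or SE name as a block the log2 fold change was 0.61 (limma adjusted p = 0.0293), and it was -0.24 without KO SE and -0.39 without WT C1. The leading gamma gene held 23.7% of the gamma sum in KO C1, where it was Pcdhgc5, and Pcdhgc3 led with 25.8% in KO C2 and 26.5% in KO SE. In WT, Pcdhgc3 led with 49.4% in C1 and 62.2% in SE. Without Pcdhgc3 the gamma sum was 59.3, 64.8 and 185.9 in KO and 14.1 and 23.5 in WT, and gamma genes at a value of 1 or more numbered 9, 10 and 12 of 12 in KO and 5 and 7 in WT. Pcdhga4, Pcdhga5, Pcdhgb6 and Pcdhgb7 reached 1 in KO alone, so the difference in these numbers was in part fixed in advance and adds no support.

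Pcdhga7 was the only clustered gene beside Pcdhb20 with a negative log2 fold change. It stood at 1.46, 8.02 and 1.29 in KO and at 6.49 and 8.86 in WT. KO C2 was at the WT level and the other KO libraries well below it, so that the log2 fold change of -1.38 (standard error 0.70) was not called (limma adjusted p = 0.173). Without KO C2 it was -2.11 (limma adjusted p = 0.0102). Pcdhga6 stood at 4.94, 7.15 and 18.3 in KO and at 3.04 and 5.44 in WT (1.01, limma adjusted p = 0.218, and 0.0117 with the C or SE name as a block), and Pcdhga12 ranged from 0.893 to 5.23 in KO and from 0.446 to 1.19 in WT (0.94, limma adjusted p = 0.298, and 0.0226 with the block); both overlapped.

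Genes that work with cadherins were counted from lists that were put together with earlier results of these data known. Of 22 further catenins and junction anchors that were tested, 3 were called higher and 4 lower, a number near the 34.3% of all genes called in either direction, with a median log2 fold change of -0.17. Pkp2, a plakophilin that links desmosomal cadherins to keratin, was at 37.8, 40.3 and 56.5 in KO and at 2.92 and 6.01 in WT (log2 fold change 3.24, limma adjusted p = 0.00128), while its relative Pkp1 was at 0 in KO and at 2.07 and 3.99 in WT (-2.76, limma adjusted p = 0.00111). Pkp1 reached the filter through WT alone and had to be lower, so its p-value adds no support. Eps8, an actin capping and bundling protein, was at 27.8, 37.5 and 51.0 in KO and at 783 and 987 in WT (-4.53, limma adjusted p = 0.000170). Ctnnal1, an alpha-catenin relative, was lower at a log2 fold change of -1.58 (limma adjusted p = 0.0106). Of 9 desmosomal genes only Ppl was in the table, and it was not called.

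Nectins are immunoglobulin-type adhesion proteins found beside cadherins in junctions. Of 4 tested, 2 were called higher (Nectin1 at a log2 fold change of 1.40, Nectin3 at 0.94) and 1 lower (Pvr at -2.14), with a median of 0.83. The shares over all tested genes were 17.2% higher and 17.1% lower. Ret, a receptor kinase with cadherin-like domains in its outer part, was 1 of 2 tested genes of the wider superfamily. It stood at 41.2, 38.2 and 106 in KO and at 0.0405 and 0.363 in WT, which is 3366 reads in KO and 8 in WT (log2 fold change 6.35, limma adjusted p = 0.000348). Ret reached 1 in KO alone and had to be higher, so this p-value adds no support. Of 19 planar polarity genes and Fat and Dachsous partners, 0 were called higher and 5 lower, with a median of -0.52. Over all tested genes 17.2% were called higher and 17.1% lower, with a median of -0.09. Fjx1, a Golgi kinase that modifies Fat and Dachsous cadherin domains, was lower at -1.92 (limma adjusted p = 0.00506), and so were the Frizzled receptors Fzd3 (-3.35) and Fzd6 (-1.88) and the Diversin gene Ankrd6 (-2.999). Fzd3, Fzd6 and Ankrd6 reached 1 in WT alone and had to be lower, so their calls add no support. Of 19 Hippo pathway genes 2 were called higher and 5 lower, also near the 34.3% of all genes, with a median of -0.34. The genes called higher were Ccn2 (2.90, limma adjusted p = 0.00241) and Ccn1 (1.23, limma adjusted p = 0.0286), and those called lower included Ankrd1 (-5.42, limma adjusted p = 0.000386), Tead2 (-2.43) and the co-activator gene Wwtr1 (-1.53). Ankrd1 also reached 1 in WT alone and had to be lower, so its p-value adds no support.

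Of 10 transcriptional repressors and mesenchymal regulators of cadherin genes, 2 were called higher and 3 lower, where 17.2% of all tested genes were called higher and 17.1% lower. Snai2, the E2-box repressor Slug, was at 323, 269 and 263 in KO and at 55.2 and 49.0 in WT (log2 fold change 2.44, limma adjusted p = 0.000443), and Foxc2 was higher at 1.51. Tcf4, Twist2 and Zeb1, the last an E2-box repressor too, were lower at -1.83, -1.62 and -0.94 (Zeb1 at a limma adjusted p of 0.0329), and the median of the list was -0.08. Of 20 genes known to regulate the protocadherin clusters, by cohesin and CTCF looping or by DNA methylation and H3K9 methylation, 0 were called higher and 4 lower. Their median was -0.66, with 18 negative log2 fold changes. Over all tested genes the median was -0.09, and 6713 of 12484 log2 fold changes were negative. The part of these regulators in the cluster values was not tested. The cohesin subunit gene Smc3 was lower at -0.86 (limma adjusted p = 0.0255). Dnmt1, the maintenance DNA methyltransferase, was at 27.0, 20.6 and 71.7 in KO and at 103 and 244 in WT (-2.19, limma adjusted p = 0.0316). The H3K9 methyltransferase gene Setdb1 (-1.51, limma adjusted p = 0.0466) and the silencing factor gene Smchd1 (-1.18, limma adjusted p = 0.0495) were close to the threshold, and 4 of 20 is near the 17.1% of all genes called lower. Among 14 genes of cadherin turnover and small GTPase control, 2 were called higher (Ptprf at 3.04, Numb at 1.01) and 0 lower, with a median of 0.00. Ptprf reached 1 in KO alone and had to be higher, so its call adds no support. The shares over all tested genes were 17.2% higher and 17.1% lower.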

How the data were processed

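Poly(A) RNA of the cells was read in single ends of 75 bp on an Illumina instrument, from stranded libraries, per the labels' protocols. The submitters' processing notes name STAR 2.5, featureCounts 1.5.2 and edgeR and give no role for them. For the authors' genome build, their annotation and the strand setting of their counting, nothing was given in these sources. The deposited numbers are a signal: the authors scaled each gene's reads by a library size, close to CPM. From the steps between values, 100% came back as whole reads, with a tolerance of 0.02 of a read. Columns give the genotype and no replicate number of the titles.

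The fit used limma 3.58.1 (eBayes with a trend) on log2(value + 0.5) over 12484 genes with at least 1 in at least 2 libraries, with genotype as the only term, 3 residual degrees of freedom and Benjamini-Hochberg adjustment. KO and WT libraries entered as 3 and 2 samples. Replicate libraries differed beyond counting noise (chi-square per degree of freedom 62.3 to 220, lowest for KO C1 with C2). Coordinates and shared exon bases came from GENCODE M21 by Ensembl ID, which matched 12607 genes. Lower bounds allowed 3 reads in each library of a genotype with none. Intervals of read-rate ratios are exact at 95% (scipy 1.17.1) and cover counting error only. List genes absent by symbol were sought by older symbols, which matched 2. edgeR 4.0.16 (quasi-likelihood test), DESeq2 1.42.0 on the recovered reads, other scalings, pseudocounts, filters and variance settings, a block for the C or SE suffix and leaving out libraries were the alternatives. Tests were run on simulated data first. The members, lists and tests were chosen with earlier results of these data known. Values in every library are given for members called or with a mean of at least 5 over the 5 libraries, and of each list up to 4 called genes with the smallest p are named, besides Ctnnb1 and Tnfaip6. The genes of 1 list are not reported here. Msln, Krt18, Des, Acta2, Cspg4, Ppl, Zeb1 and Ccn1 were picked after their values were seen. So were Col1a1, Col1a2, Ly6a, Cd44, Nt5e, Alcam, Csf1r, Lyz2, Ncam1 and Sox2. Adipoq, Plin1, Cidec, Cd36, Tagln, Rgs5, Ocln, Nes, Tubb3, Flt1, Erg and Vwf were picked in the same way. Computation used R 4.3.3 and Python 3.11.15.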

Additional observations from a re-analysis of the deposited data

How the results depend on the processing

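Of 18 alternatives, 14 to 18 gave a value for each of the 22 called members, since a filter or a left-out library can remove a gene, and no sign changed in these. Values in all 18 and a call in each were found for 6, of which 4 (Cdh2, Fat1, Pcdh1 and Pcdhga1) reached 1 in both genotypes; Pcdhb15 and Pcdhga5 reached it in KO alone and had to be higher. Ctnnd2, Dchs1 and Pcdh9 gave no value without WT C1 or WT SE. No paired analysis was possible because the columns carry no replicate number of the titles, and the labels do not say that the C or SE suffix pairs libraries. With this suffix as a block all the same, 7568 genes were called in place of 4279, 23 members higher and 8 lower in place of 16 and 6, and 18 clustered members higher in place of 12. On the recovered reads edgeR called 15 members higher and 6 lower among 4079 genes called, and DESeq2 17 and 6 among 4836. A filter at 5 left 11 members called higher and 4 lower among 3344 genes called, 8 of the higher ones clustered. Without both SE libraries 15 were called higher and 4 lower. Leaving out 1 library gave 1676 called genes (without WT SE) to 4964 (without KO SE), 7 (without WT C1) to 16 members higher, 1 (without WT SE) to 8 lower, and 5 (without WT C1) to 12 clustered members higher; a WT of 1 library is then assumed to vary like KO. The sign turned only in members that were not called. Cdh26 had log2 fold changes of -0.646 to 0.0838 over the libraries left out (0.0838 without KO C2), and Pcdhgc3 -0.386 to 1.07 (-0.386 without WT C1, -0.241 without KO SE). Pcdhb19 was at -0.102 without both SE libraries. The cause was not tested. The 5 libraries and 3 residual degrees of freedom limit the precision.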
